A study of Mus musculus with 22 samples.

Results

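Microglia are the resident phagocytes of the brain, and 10 genes that mark them were followed through slices of the young mouse brain. The genes were Aif1, Cx3cr1, Csf1r, Itgam, C1qa, C1qb, C1qc, Tmem119, P2ry12 and Trem2, a list of markers given by name, out of 20125 gene symbols that the array measures with a RefSeq-identified probe. In Transcriptome Tomography a whole brain is cut along 1 axis into slabs. The RNA of each fraction, which is 1 slab or a few pooled neighbouring slabs, is measured on its own array. The brains came from 3 male C57BL/6J mice for which the labels name no treatment. Mouse 1 gave the 10 fractions of the coronal series, mouse 2 the 6 fractions of the horizontal series and mouse 3 the 6 fractions of the sagittal series. Their age is 7 days after birth by the sample titles but 3 days by the labels' age field. No fraction was measured again, so axis, animal and series cannot be told apart, and precision is limited by the count of arrays.

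Levels are given as log2 processed intensity relative to the array's 75th percentile, so a difference of 1 is a doubling relative to the other transcripts of that fraction. In bulk tissue of this kind, fewer microglia and less RNA per microglial cell cannot be told apart. The labels do not name the ends of a series, but landmark genes place them. Hindbrain genes were highest in coronal fraction 1, olfactory bulb genes in coronal fraction 10 and hypothalamic genes in horizontal fraction 6. On 7 of the 22 arrays the Agilent spike-in slope, a built-in check of how signal follows RNA dose, was out of its range (0.773 to 0.891, against 0.949 to 1.07 on the other 15). These were coronal fractions 1 and 2, horizontal fractions 1 to 3 and sagittal fractions 1 and 3. On them the dim spike-in transcript a107 read 6.40 to 8.25 on the log2 intensity scale, against 3.04 to 4.93 on the others, and between 65.0% and 75.5% of probes were well above background, against 53.2% to 65.4%. The horizontal series divides here into fractions 1 to 3 and 4 to 6, so position and array quality move together in it.

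Microglia arise from yolk sac progenitors, settle in the brain before birth and are kept alive by signals through Csf1r, the receptor for Csf1 and Il34. In the first weeks of life they multiply, clear dying cells and remove synapses, in part by complement proteins that tag the synapse and receptors that read the tag. Cx3cr1 receives the neuronal chemokine Cx3cl1, P2ry12 senses ADP from damaged cells, and Trem2 binds lipids and signals through Tyrobp. C1qa, C1qb and C1qc encode the 3 chains of C1q, which starts the classical complement cascade, and Itgam encodes CD11b, which pairs with Itgb2 to form complement receptor 3. Aif1 encodes Iba1, an actin-binding protein that is widely stained to show microglia, and Tmem119 is a surface protein that sets microglia apart from other macrophages.

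Promoters of 7 of the 10 genes were held in the RefSeq table of assembly GRCm38.p6, and the 250 bases before each start were searched for GAGGAA on either strand, the core letters bound by PU.1, the myeloid transcription factor encoded by Spi1. The letters occurred before 5 of the 7 genes, Aif1, Itgam, C1qb, C1qc and Trem2, and in 23.3% of all 32851 promoters in the table. Neither Cx3cr1 nor P2ry12 held them in this window. A match is a description of letters and not a measured site. The promoters of C1qb and C1qc and of Aif1 and Trem2 are shown because the levels within each pair ran closely together across the fractions, as described further on. Capitals mark the letters searched or their reverse complement, and each promoter is written 5′ to 3′ on the strand of its gene.
C1qb, chr4:136886201-136886450, minus strand: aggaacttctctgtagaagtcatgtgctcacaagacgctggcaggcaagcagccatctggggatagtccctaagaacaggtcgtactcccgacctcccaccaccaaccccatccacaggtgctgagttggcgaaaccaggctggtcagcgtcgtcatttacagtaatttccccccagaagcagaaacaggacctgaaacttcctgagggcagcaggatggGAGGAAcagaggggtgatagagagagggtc
C1qc, chr4:136892915-136893164, minus strand: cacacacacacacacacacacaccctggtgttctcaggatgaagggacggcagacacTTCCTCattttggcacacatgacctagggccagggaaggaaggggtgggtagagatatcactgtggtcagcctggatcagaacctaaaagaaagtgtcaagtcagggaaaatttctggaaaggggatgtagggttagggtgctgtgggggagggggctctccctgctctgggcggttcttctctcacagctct
Aif1, chr17:35176053-35176302, minus strand: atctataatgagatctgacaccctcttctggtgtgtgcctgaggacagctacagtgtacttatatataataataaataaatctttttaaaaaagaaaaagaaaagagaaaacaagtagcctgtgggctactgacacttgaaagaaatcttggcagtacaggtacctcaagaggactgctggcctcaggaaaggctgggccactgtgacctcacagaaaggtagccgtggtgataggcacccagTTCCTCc
Trem2, chr17:48346151-48346400, plus strand: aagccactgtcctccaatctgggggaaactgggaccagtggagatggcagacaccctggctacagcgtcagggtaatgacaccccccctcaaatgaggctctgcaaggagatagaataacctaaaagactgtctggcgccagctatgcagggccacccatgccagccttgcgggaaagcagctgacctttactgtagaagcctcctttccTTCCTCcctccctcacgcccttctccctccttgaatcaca

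All 10 genes were well above background in all 22 fractions, so none was lost to a filter on low values. Csf1r ranged from 3.59 in horizontal fraction 2 through a median of 4.75 to 5.55 in horizontal fraction 6. Cx3cr1 ranged from 2.27 in horizontal fraction 1 to 4.09 in coronal fraction 7, with a median of 3.71. Both receptors were thus lowest at the low-numbered end of the horizontal series. P2ry12 ranged from -0.75 in horizontal fraction 1 to 0.76 in horizontal fraction 3, with a median of 0.19. Trem2 ranged from 1.78 in coronal fraction 9 to 3.37 in horizontal fraction 6, with a median of 2.47. The C1q chains kept a similar order of fractions. C1qa ranged from 1.21 to 3.06 (median 1.88), C1qb from 1.04 to 2.69 (median 1.58) and C1qc from 2.43 to 3.87 (median 2.92), each with its highest level in horizontal fraction 6. Aif1 ranged from 1.63 in coronal fraction 2 to 3.55 in horizontal fraction 6 (median 2.32), and Tmem119 from -0.46 to 1.45 in the same 2 fractions (median 0.49). Between their lowest and highest fractions these 9 genes spanned from 1.44 log2 units for C1qc to 1.97 for Csf1r.

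**Figure D1:**
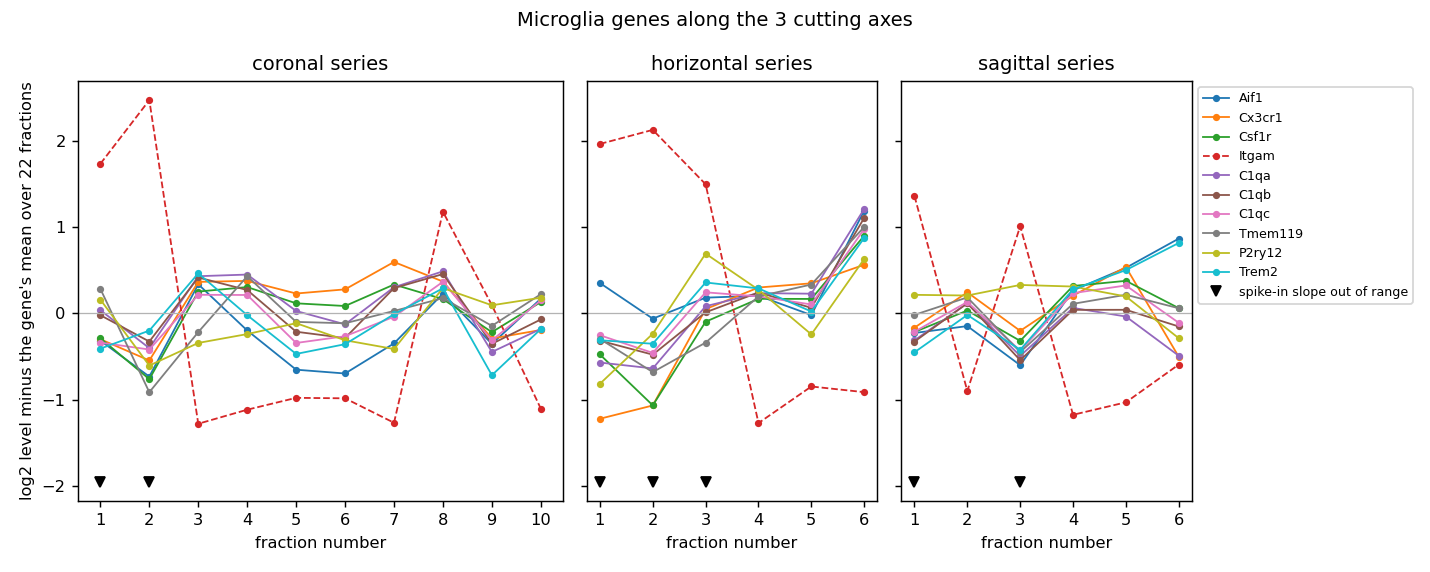
Log2 level of the 10 microglia genes in each fraction, minus the gene's own mean over the 22 fractions, against fraction number in the coronal, horizontal and sagittal series. Each point is 1 array, triangles mark the 7 arrays whose spike-in slope was out of range, and Itgam (dashed) runs apart from the other 9 genes, of which 8 have their highest horizontal level in fraction 6.

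Itgam did not share this course. Its probe read 4.75 to 8.50 with a median of 5.16, and on the 7 arrays with the slope out of range it lay between 7.04 and 8.50. On the other 15 arrays it lay between 4.75 and 7.21, the upper value being coronal fraction 8, so the ranges overlapped by that 1 array. The Pearson r of this probe with the a107 spike-in was 0.895 over the 22 arrays, which share their labelling and scanning. Its r with the other 9 genes ran from -0.81 with Csf1r to -0.11 with P2ry12 over the 22 arrays, and from -0.30 with Csf1r to 0.24 with P2ry12 over the 15 arrays whose slope was in range. The array carries 2 further Itgam probes, with medians of -2.61 and -3.51, and their r with the first probe was 0.473 and 0.802. The second of these also followed a107 (r = 0.862), and the first did so less (r = 0.418). A set of 16686 other genes had a probe well above background in at least 1 fraction of each series. Of these, 291 (1.74%) had r above 0.95 with this Itgam probe. The closest were Idua, a lysosomal enzyme, and Mcidas, a regulator of multiciliated cells, both with r above 0.999. Whether the probe measures Itgam transcript was not tested, and counts below are given with Itgam and without it.

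**Figure D2:**
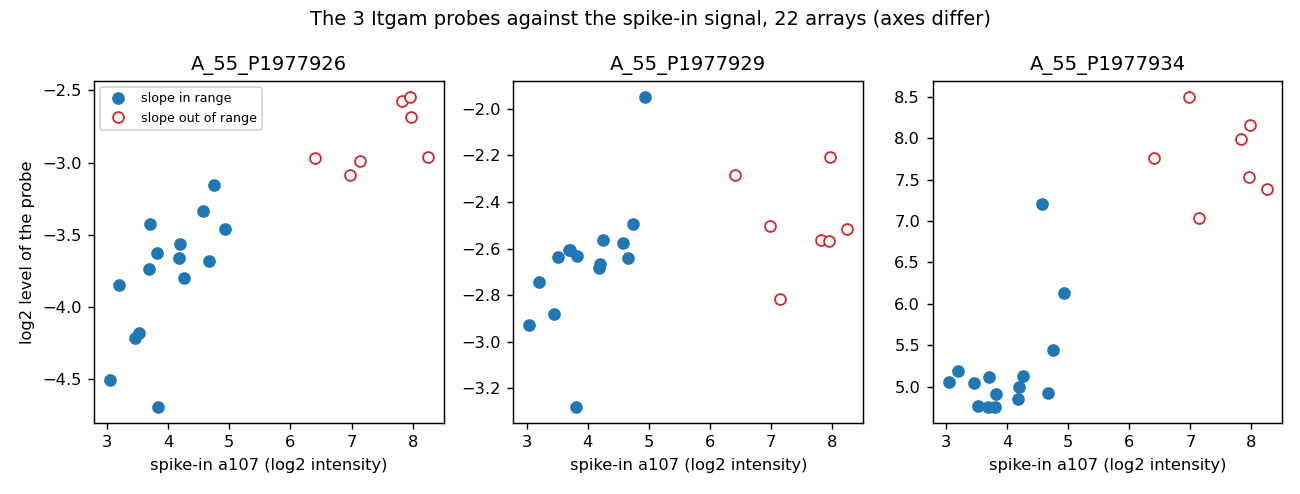
Log2 level of each of the 3 Itgam probes (vertical axis, scaled separately) against the log2 intensity of the spike-in transcript a107 on the same array, for 22 arrays. Open points are the 7 arrays with the spike-in slope out of range, and for the probe chosen by the rule (A_55_P1977934) they lie between 7.04 and 8.50.

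The other genes ran together to different degrees. Over the 22 fractions, the median Pearson r of the 45 pairs was 0.532, and 0.633 over the 36 pairs without Itgam, against 0.026 over all pairs of detected genes. Detected genes, here and below, are the 16687 genes whose probe was well above background in at least 1 fraction of each series. This filter is looser than detection in every fraction. The 2 highest values were for C1qa and C1qb (0.954) and for C1qb and C1qc (0.901), and C1qa and C1qc had 0.838. Over the 15 arrays whose slope was in range these pairs had 0.942, 0.896 and 0.801. Within single series, C1qa and C1qb had r of 0.940 in the coronal, 0.983 in the horizontal and 0.853 in the sagittal series. The receptors Csf1r and Cx3cr1 had r of 0.847 (0.642 over the 15 arrays), and Csf1r and the surface protein Tmem119 had 0.830 (0.762). Aif1 and Trem2 formed another close pair (r = 0.829), with 0.696 in the coronal, 0.760 in the horizontal and 0.965 in the sagittal series and 0.907 among the 15 arrays. The lowest pair without Itgam was Aif1 and Cx3cr1 (r = 0.104, and -0.03 over the 15 arrays). In the sagittal series P2ry12 ran against Aif1 (r = -0.735) and against Trem2 (r = -0.698). Fractions of 1 series share a brain and neighbouring tissue, so these values describe the fractions and have no p-value.

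Position along each series was tested with limma in 1 model of all 22 arrays, with a straight and a curved term for each series, and p-values were adjusted over the 39621 probes tested. The spread in this test is the scatter of single arrays around the curves and not a spread between animals. Its median residual SD was 0.376. A linear change below is the fitted difference between the last and the first slab, with its SE.

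Along the coronal axis, from the hindbrain end to the olfactory bulb end, 0 of the 10 genes passed the threshold in limma, and 1 of 10 had an unadjusted p under 0.05. Of all probes, 19.8% passed and 38.8% had an unadjusted p under 0.05. With slide as a block 4.03% of all probes passed, with the coronal arrays fitted alone 1.60%, and with coronal fraction 2, 6 or 7 left out 12.8%, 12.3% and 13.2%, and 0 of the 10 genes passed in each of these fits. The lowest adjusted p was 0.0940, for Cx3cr1, whose fitted curve spanned 0.84 and whose level ran from 2.95 in fraction 2 through a median of 3.75 to 4.09 in fraction 7. Linear changes of the 9 genes without Itgam lay between -0.15 (C1qa) and 0.43 (P2ry12). Raw levels still showed shared high and low fractions. Coronal fraction 2 was below the gene's own mean for 9 of 9 genes and the lowest of the series for 6 of them, and fraction 8 was above the mean for 9 of 9 and the highest for 4, P2ry12 and the 3 C1q chains. Over all detected genes, 36.6% were lowest in coronal fraction 2, an array with the slope out of range and the single coronal array on its slide, and 4.98% were highest in fraction 8. The striatum genes were also highest in fraction 8. Oligodendrocyte genes, which make myelin, changed in 8 of 8 tested along this axis, 7 of them lower toward the olfactory bulb, with a median linear change of -3.67. With slide as a block 7 of the 8 passed, and 6 with the coronal arrays alone.

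Along the horizontal axis Cx3cr1, C1qa and Csf1r were higher toward fraction 6, the fraction with the highest hypothalamic transcripts. In limma these 3 of 10 genes passed the threshold (3 of 9 without Itgam). Of all probes, 6.57% passed in either direction and 3.94% passed while rising with fraction number. Cx3cr1 read 2.27, 2.42, 3.54, 3.79, 3.84 and 4.06 in fractions 1 to 6. Its linear change was 1.92 ± 0.36 (SE, adjusted p = 0.0210), with the largest step between fractions 2 and 3. C1qa read 1.28, 1.21, 1.94, 2.09, 2.08 and 3.06, a change of 1.66 ± 0.39 (adjusted p = 0.0449). Csf1r read 4.18, 3.59, 4.56, 4.82, 4.82 and 5.55, a change of 1.55 ± 0.38 (adjusted p = 0.0493). C1qa and Csf1r were flat between fractions 4 and 5 and stepped up in fraction 6, where Cx3cr1 gained less.

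The other 6 genes without Itgam did not pass, though each had a positive linear change. Tmem119 came closest, with -0.23 in fraction 2, a median of 0.40 and 1.45 in fraction 6 (change 1.44 ± 0.41, adjusted p = 0.0653). C1qb followed with 1.10, 1.62 and 2.69 as its lowest, median and highest levels (adjusted p = 0.0817), and C1qc with 2.43, 3.04 and 3.87 (adjusted p = 0.105). P2ry12 differed in shape, since it was highest in fraction 3 (0.76) and nearly as high in fraction 6 (0.69), with -0.18 in fraction 5 between them (adjusted p = 0.112). Trem2 (adjusted p = 0.185) and Aif1 (adjusted p = 0.193) had their highest level in fraction 6, at 3.37 and 3.55, after medians of 2.65 and 2.55. Aif1 was already 2.71 in fraction 1, the second highest of its series, where Cx3cr1 was at its lowest. Itgam had a linear change of -3.73 ± 1.32 (adjusted p = 0.119).

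**Figure D3:**
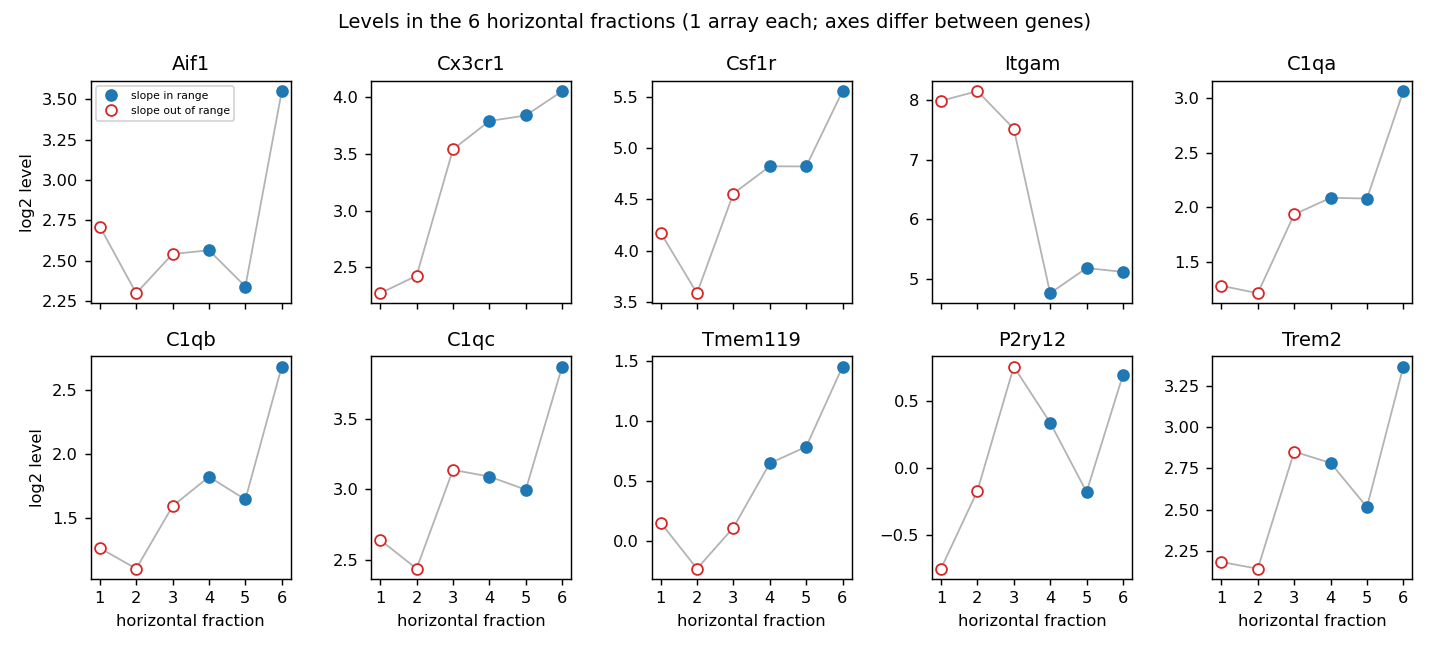
Log2 level of each microglia gene (vertical axis, scaled separately) in horizontal fractions 1 to 6, with 1 array per fraction. Open points are the 3 arrays with the spike-in slope out of range, and 8 of the 10 genes have their highest level in fraction 6.

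Fraction 6 was the highest of the horizontal series for 8 of the 10 genes, while 22.3% of all detected genes had their highest level there. Without scaling the arrays, it was the highest for 5 of the 10 and for 5.34% of all detected genes. The excess of fraction 6 over the mean of fractions 1 to 5 was 1.34 for C1qa (2.54-fold), 1.20 for C1qb, 1.16 for Csf1r and Tmem119, 1.06 for Aif1 and 1.01 for C1qc. It was 0.88 for Cx3cr1, 0.87 for Trem2 and 0.70 for P2ry12, while Itgam had -1.61. The median was 1.04 over the 10 genes and 1.06 without Itgam, and the median over all 16687 detected genes was 0.12. Among fractions 4 to 6, whose arrays all had the slope in range, the 9 genes without Itgam were each highest in fraction 6, by 0.22 (Cx3cr1) to 1.21 (Aif1) over fraction 5. Of all detected genes, 41.3% were highest in fraction 6 among these 3.

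The 3 calls did not hold in every fit. With the a107 spike-in signal as a covariate in limma, 0 of the 10 genes passed, and of all probes 0.103% passed. The linear changes were then 1.31 ± 0.48 for Cx3cr1 (adjusted p = 0.245), 1.19 ± 0.56 for C1qa (adjusted p = 0.473) and 0.80 ± 0.50 for Csf1r (adjusted p = 0.611), and 9 of 9 genes without Itgam stayed positive. Itgam turned from -3.73 to 0.88 ± 1.01 (adjusted p = 0.899). Without horizontal fraction 6 the change was 0.99 ± 0.41 for C1qa (adjusted p = 0.194), 1.01 ± 0.42 for Csf1r (adjusted p = 0.189) and 1.80 ± 0.39 for Cx3cr1 (adjusted p = 0.0494), and that of Aif1 turned to -0.19 ± 0.45. Leaving out horizontal fraction 1, 2 or 5 also left 0 of 10, and of all probes 0.0227%, 1.44% and 1.01% then passed. With 1 of coronal fractions 4 to 7, of horizontal fractions 3, 4 and 6, or of sagittal fractions 1, 2 and 4 to 6 left out, 1 of 10 passed, and between 2.08% and 5.67% of all probes. The 6 horizontal arrays shared 1 slide. The part of array quality in the horizontal change was not tested, because 3 arrays with the slope in range cannot carry the curve. A second Cx3cr1 probe had a horizontal change of 1.38 ± 0.30 in limma (adjusted p = 0.0285). Of 2 further Csf1r probes, 1 had a change of 1.51 ± 0.39 (adjusted p = 0.0628) and the other one of -0.94 ± 0.42 (adjusted p = 0.156), so the probes of Csf1r disagreed in direction.

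**Figure D4:**
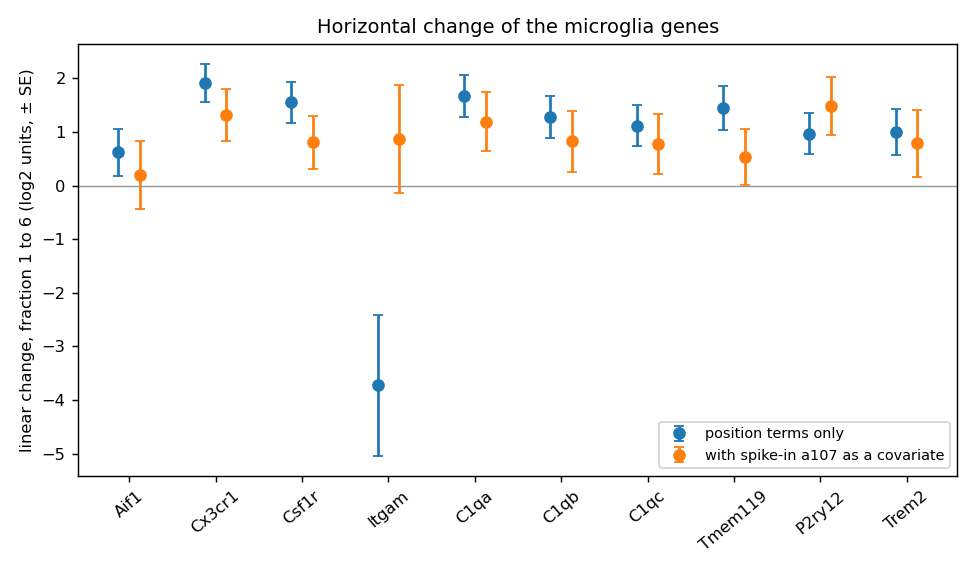
Fitted linear change from horizontal fraction 1 to 6, in log2 units with its SE, for each microglia gene with position terms alone and with the spike-in a107 as a covariate. For 8 of the 9 genes without Itgam the change is smaller with the covariate, P2ry12 goes from 0.97 to 1.49, and Itgam moves from -3.73 to 0.88.

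Along the sagittal axis, from side to side, 0 of the 10 genes passed for the linear term in limma (2 of 10 with an unadjusted p under 0.05), and of all probes 10.2% passed (24.0% unadjusted). The share of all probes rested on fraction 6. Without it limma called 0 of 39621 probes (2200 with an unadjusted p under 0.05), and with the sagittal arrays fitted alone it also called 0 (12744 unadjusted). For the curved term, which sets the middle against both sides, 0 of 10 passed (0 of 10 unadjusted), and of all probes 0.0303% passed (14.8% unadjusted). Without Itgam (-1.82 ± 1.40, adjusted p = 0.448), the largest linear changes were those of Trem2 (1.31 ± 0.45, adjusted p = 0.0819) and Aif1 (1.27 ± 0.47, adjusted p = 0.107). Trem2 read 2.04, 2.47, 2.07, 2.77, 2.99 and 3.31 in fractions 1 to 6, and Aif1 read 2.13, 2.21, 1.76, 2.63, 2.89 and 3.23. Both had their highest sagittal level in fraction 6, which pools slabs 7 to 9 and in which 33.2% of all detected genes were highest and 29.5% lowest. Cx3cr1 and P2ry12 had their lowest sagittal level in that same fraction, at 2.99 and -0.22, and C1qa read 1.36 there, as it did in fraction 3. Set against the mean of the other 8 genes without Itgam, each centred on its own mean, fraction 6 was 0.94 higher for Aif1 and 0.89 higher for Trem2, with -0.60 for Cx3cr1, -0.58 for C1qa and -0.36 for P2ry12. The difference between these genes was not tested. Fraction 3, on an array with the slope out of range, was the lowest for 6 of the 9, and for 18.1% of all detected genes.

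Other genes of the same cells were read from lists, whose counts stand beside the share of all 39621 probes that passed. Of 16 further microglia genes, 2 passed for horizontal position (6.57% of all probes), both higher toward fraction 6: Selplg, a ligand for selectins (2.06 ± 0.36, adjusted p = 0.0192), and Sall1, a transcription factor of microglial identity (1.54 ± 0.37, adjusted p = 0.0497). The list's median linear change was 0.87 and the median over all probes was -0.20. With a107 as a covariate 0 of the 16 passed, and 0.103% of all probes, and the list's median change was 0.66. Fraction 6 was the highest of the horizontal series for 10 of the 16, and for 22.3% of all detected genes. Along the coronal axis 2 of the 16 passed, against 19.8% of all probes, among them Sall1 (1.67 ± 0.32, adjusted p = 0.0075), which was higher toward the olfactory bulb. Sall1 did not pass with slide as a block (adjusted p = 0.102) or with the coronal arrays alone (adjusted p = 0.0906). Along the sagittal axis the linear term passed for 2 (10.2% of all probes), the lysophosphatidylserine receptor Gpr34 (1.69 ± 0.44, adjusted p = 0.0244) and Ecscr (1.46 ± 0.44, adjusted p = 0.0493), both highest in fraction 6. Without sagittal fraction 6 neither passed (adjusted p = 0.670 and 0.782), as was so for every probe. The probe of Siglech, a sialic acid-binding lectin, was highest in coronal fraction 2 and horizontal fraction 1, as the probe of Itgam was high there.

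Of 19 genes that microglia share with other macrophages, 2 passed for horizontal position, against 6.57% of all probes, and with a107 as a covariate 0 passed, against 0.103%. The 2 were Vsir (1.62 ± 0.27, adjusted p = 0.0133), an immune checkpoint protein, and Unc93b1 (1.38 ± 0.31, adjusted p = 0.0384), a chaperone of Toll-like receptors. The median change of the list was 0.67, and 17 of the 18 detected in every fraction were highest in fraction 6, against 22.3% of all detected genes. Along the coronal axis 3 of the 19 passed, 1 with a positive and 2 with a negative linear change, against 19.8% of all probes. Inpp5d, a lipid phosphatase of immune receptors, had a change of 1.13 ± 0.26 (adjusted p = 0.0117), and Fcgr1, an Fc receptor, had -1.14 ± 0.30 (adjusted p = 0.0337). With slide as a block and with the coronal arrays alone 0 of the 19 passed, 2 and 3 of them having an unadjusted p under 0.05. For the sagittal linear term 1 of the 19 passed (10.2% of all probes), Tyrobp, the adaptor of Trem2. Tyrobp ran from 2.33 in fraction 3 to 4.75 in fraction 6 (1.99 ± 0.57, adjusted p = 0.0376), the fraction in which Trem2 was also highest. Without fraction 6 its change was 0.70 ± 0.60 (adjusted p = 0.674). Spi1, which encodes PU.1, was detected in 12 of the 22 fractions.

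Ligands and partners of the 10 genes formed another list. For horizontal position 7 of 18 passed, all with a positive linear change, against 6.57% of all probes in either direction and 3.94% rising. They were Csf1, C2, C4b, Serping1, Apoe, Clu and Hcst. Csf1, a ligand of Csf1r, read -0.94 in fraction 2 and 0.24 in fraction 6 (1.25 ± 0.28, adjusted p = 0.0400). The complement proteins C4b (1.61 ± 0.36, adjusted p = 0.0112) and C2 (1.02 ± 0.53, adjusted p = 0.0413) act just after C1q, and Serping1 (1.73 ± 0.50, adjusted p = 0.0272) inhibits the C1 complex that C1q belongs to. Apoe, a lipid carrier bound by Trem2, read 7.31 in fraction 2 and 8.91 in fraction 6 (1.54 ± 0.31, adjusted p = 0.0270). With a107 as a covariate 0 of the 18 passed, and 0.103% of all probes, and the list's median change went from 0.77 to 0.29. Along the coronal axis 5 of 18 passed, against 19.8% of all probes. Cx3cl1, the neuronal ligand of Cx3cr1, ran from 2.45 in fraction 2 to 5.71 in fraction 6 (2.13 ± 0.58, adjusted p = 0.0175), and Il34, the other ligand of Csf1r, from -0.18 in fraction 2 to 1.90 in fraction 8 (1.73 ± 0.38, adjusted p = 0.0083). With slide as a block and with the coronal arrays alone 0 of the 18 passed, 5 and 6 of them having an unadjusted p under 0.05. Neither receptor passed along this axis.

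Of 17 genes tested for a phagocytic state of postnatal microglia, 2 passed for horizontal position (6.57% of all probes), and with a107 as a covariate 0 of the 17 passed (0.103% of all probes). The 2 were the phosphatidylserine-binding Anxa5 (1.10 ± 0.36, adjusted p = 0.0395) and the clearance receptor Axl (1.54 ± 0.32, adjusted p = 0.0334). Along the coronal axis 2 of the 17 passed, against 19.8% of all probes. Lpl, a lipase, ran from -0.96 in fraction 1 to 2.62 in fraction 6, and Cd63, a lysosomal membrane protein, from 7.13 in fraction 3 to 5.21 in fraction 9. Lpl also passed with slide as a block (adjusted p = 0.0036) and with the coronal arrays alone (adjusted p = 0.0253), and Cd63 did not (adjusted p = 0.106 and 0.0691). For the sagittal linear term 1 of the 17 passed (10.2% of all probes), the fatty acid-binding protein Fabp5 (1.01 ± 0.28, adjusted p = 0.0308, and 0.30 ± 0.29 with an adjusted p of 0.692 without fraction 6).

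Markers of other cells moved with several of these fractions. Border macrophages line the meninges, vessels and choroid plexus and express several of the 10 genes, among them Csf1r, Aif1 and the C1q chains. Of their 13 markers, 11 to 12 were above background in a horizontal fraction, and their summed level (log2 of the sum of linear levels) ran from 3.58 in fraction 2 to 6.43 in fraction 6. Of the 12 tested, 8 passed for horizontal position, against 6.57% of all probes, and with a107 as a covariate 0 passed, against 0.103%. Of the 11 detected in every fraction, 11 were highest in fraction 6, against 22.3% of all detected genes. Mrc1, a mannose receptor that defines these cells, read 0.48 in fraction 2 and 2.61 in fraction 6. Markers of meningeal fibroblasts, 6 of 6 above background, ran from 4.97 in fraction 3 to 7.48 in fraction 6. Summed levels of markers of astrocytes (7.61 to 8.78, 7 of 7 above background), of endothelium and pericytes (5.14 to 6.28, 7 of 7) and of bone (1.86 to 4.31, 2 to 5 of 5) were lowest in horizontal fraction 2 and highest in fraction 6. In horizontal fraction 1 the mean centred level was 1.00 for 11 border macrophage genes and -0.43 for the 9 microglia genes, and in coronal fraction 10 it was 0.58 and 0.03. Both lists were at similar levels in coronal fraction 2 (-0.60 and -0.54) and coronal fraction 9 (-0.31 and -0.30). The part of these cells in the level of the microglia genes in horizontal fraction 6 was not tested.

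In sagittal fraction 6, where Aif1 and Trem2 were highest, markers of neutrophils and monocytes summed to 4.15, against 1.03 in fraction 3 and a median of 1.84. Of the 12 tested, 3 passed for the linear term, against 10.2% of all probes, the granule proteins S100a8 and S100a9 and the leukocyte protein Plac8. S100a8 ran from -4.51 in fraction 3 to 1.90 in fraction 6 (5.07 ± 1.05, adjusted p = 0.0079). Without fraction 6 its change was 1.29 ± 1.08 (adjusted p = 0.672), and 0 of the 12 passed, as did 0 of all probes. Over the sagittal fractions 7 to 11 of the 13 markers were above background. Summed levels of red blood cell (7.00), border macrophage (4.94), bone (4.98), lymphocyte (3.97), meningeal fibroblast (6.51), endothelial and pericyte (6.94) and choroid plexus (7.35) markers were also highest in sagittal fraction 6, as were those of the olfactory bulb (7.26) and cerebellum (5.27) landmark genes. The part of these cells in the sagittal levels of Aif1 and Trem2 was not tested.

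**Figure D5:**
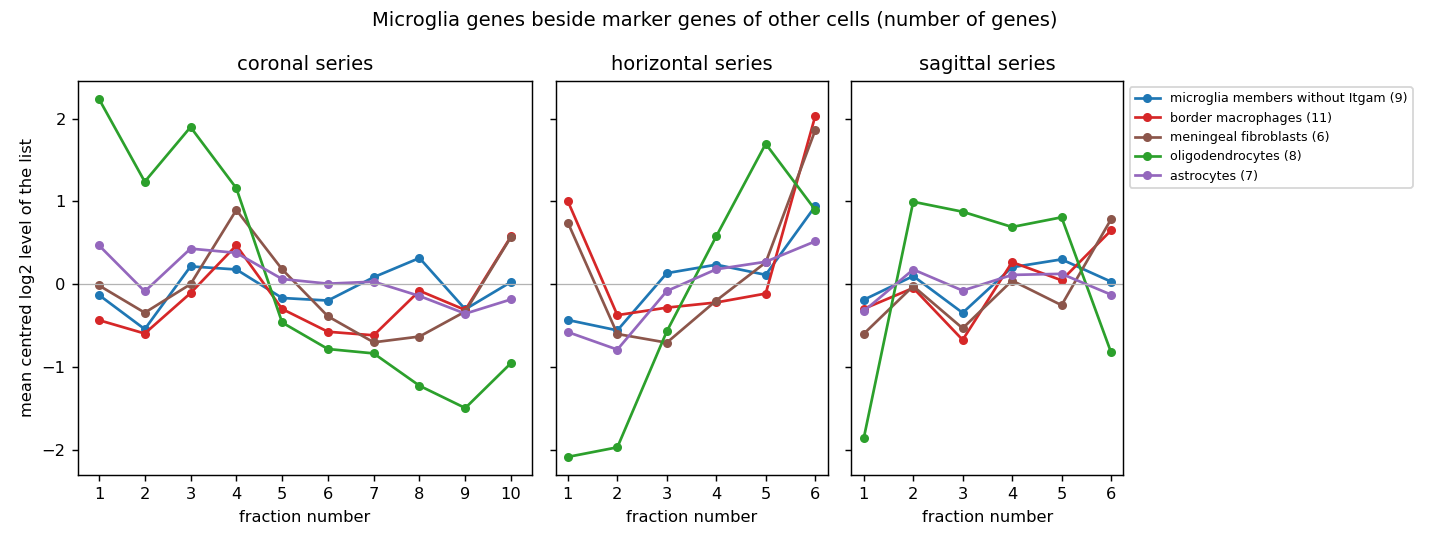
Mean log2 level of marker genes, each centred on its mean over the 22 fractions, against fraction number for the microglia genes without Itgam and for 4 lists of other cells, with the number of genes in brackets. In horizontal fraction 6 the microglia genes stand at 0.94, border macrophage genes at 2.03 and meningeal fibroblast genes at 1.86, while oligodendrocyte genes are highest in fraction 5.

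Genes outside the list whose course was most like that of the microglia genes were sought by Pearson r over the 22 fractions. For the mean of the 9 genes without Itgam, 18 genes had r above 0.85, led by Cyth4 (0.954), Abi3 (0.922), Arhgap45 (0.909), Adora3 (0.900), Vav1 (0.896), Fcer1g (0.890) and Ctss (0.885), followed by Adgre1, Il10ra and Fes. Adgre1 encodes a macrophage surface antigen, Ctss a lysosomal protease and Fcer1g an adaptor of Fc receptors. With Itgam in the mean, 5 genes had r above 0.85, with Abi3 (0.881), Ctss (0.874), Ptpn6 (0.873), Ncf4 (0.866) and Vav1 (0.852) in front. Aif1 was most like Slamf9 (0.944), Cd52 (0.944), Tnfaip8l2 (0.933) and Tyrobp (0.930), and Trem2 most like the chemokines Ccl6 (0.957) and Ccl9 (0.933). Tmem119 was most like Myd88 (0.893), Csf1r most like Myh9 (0.931) and Cx3cr1 most like Galnt10 (0.913). C1qc was most like Cyth4 (0.924) and Vav1 (0.922). P2ry12 had no gene above 0.85, the closest being Rbbp9 at 0.739.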

How the data were processed

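Total RNA of 22 brain fractions was labelled with Cy3 and hybridised to Agilent SurePrint G3 Mouse arrays designed on mm9. Per the file headers, the authors extracted a background-subtracted processed intensity for each spot with Feature Extraction 10.10.1.1. The authors also deposited a log2 table, whose columns equalled log2 of that intensity minus the array's 75th percentile within 0.02 for 99.9% of values. The column medians of that table lay between -2.90 and -1.86.

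Control and outlier spots were left out, spots of a probe were averaged and the same scaling was applied to 55600 probes. Of 28087 RefSeq probes, 26547 matched a gene symbol, and a gene was read from its probe with the highest median over the 22 arrays (15 probes for the 10 genes). The test kept 39621 probes that were well above background in at least 1 fraction of each series. Position was tested in R 4.3.3 with limma 3.58.1, with 9 coefficients, 13 residual degrees of freedom, F tests for the coronal and horizontal axes and separate tests of the sagittal linear and quadratic terms. P-values were adjusted by the Benjamini-Hochberg method over all probes and called at 0.05, and the fits were first run on simulated data. Tables and figures were made in Python 3.11.15 with numpy 2.4.6, pandas 2.3.3 and matplotlib 3.10.9. The alternative background correction (normexp, offset 50) used the median spot signal in place of the planned mean signal.

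Groups came from the section plane in the labels. A fraction's position was the midpoint of its slabs, and pooled slabs were coronal 10 and 11, sagittal 1 and 2, and sagittal 7 to 9. The members and gene lists were chosen with earlier results of these data known. Named genes were the 10 members, up to 4 per list and term among those past the threshold by the largest fitted range, the defining genes of a marker list, and the genes with the highest correlation. Other listed genes that passed are named to complete a count, and Spi1, Siglech, Idua and Mcidas were named after their values were seen. Results of a few listed genes are not reported here.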

Additional observations from a re-analysis of the deposited data

Results flagged for a closer look

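In each series, the highest and the lowest level of each of the 10 genes was set against the nearest other level with Dixon's ratio of gap to range. This gave 30 groups, of which 4 held a value past the 95% limit, and chance alone gives about 1 in 20. Aif1 in horizontal fraction 6 stood at 3.55 against 2.71 in fraction 1, the second highest (ratio 0.670). Tmem119 in coronal fraction 2 was low at -0.46 against 0.23 (ratio 0.518), on an array with the spike-in slope out of range. Tmem119 in sagittal fraction 3 was low at 0.00 against 0.43 (ratio 0.649), on another such array. P2ry12 in sagittal fraction 6 was low at -0.22 against 0.26 (ratio 0.784), in the fraction where Aif1 and Trem2 had their highest sagittal levels.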

How the results depend on the processing

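The number of the 10 genes past the threshold for horizontal position was 3, and moved to 1 without scaling (5.82% of all probes passed), 1 without a filter on low values (2.67%), 0 with a linear term alone (0.520%), 0 with a107 as a covariate (0.103%), 0 with a107 and median centring (0.0126%, added after the data were seen) and 0 with the horizontal arrays fitted alone, where limma called 0 of 39621 probes and 10614 had an unadjusted p under 0.05. It was between 2 and 4 with median centring, quantile normalization, normexp, the authors' table, probes detected in all fractions, slide as a block, a variance trend and the mean of a gene's probes. With each of the 22 fractions left out in turn it ran from 0 to 4, while 0.0227% to 16.5% of all probes passed. Cx3cr1 passed in 19 of these 22 fits and in 10 of 14 other settings, C1qa in 7 and 8, Csf1r in 4 and 5, and Tmem119, not called at first, in 2 and 2. For coronal position the count was 0 and became 1 without scaling (Cx3cr1, adjusted p = 0.0471). For the sagittal linear term it was 0 and became 1 among probes detected in all fractions (Trem2, adjusted p = 0.0446). Each other count was 0 for the coronal and both sagittal terms, including every fit with a fraction left out. Of all probes, 6.07% passed for the sagittal linear term with a107 as a covariate and 0.0101% with a linear term alone, against 10.2%. This share was 4.25% with median centring, 4.70% with quantile normalization and 0.530% with a107 and median centring. It was 16.1% with normexp and 18.9% among probes detected in all fractions. Without scaling it was 6.98%, with 60 of 2765 calls rising, against 3077 of 4045 with the scaling used. The cause of these moves was not tested. No paired analysis was possible because fraction numbers are positions along different axes of different mice. The curved term could not be tested in a fit with a linear term alone. Median centring moved the median horizontal change of all probes from -0.20 to 0.31. Of the called horizontal changes, 1563 of 2604 were rising, against 1026 of 1224 with median centring and 2836 of 3441 with quantile normalization. Without scaling 1125 of 2306 were rising and 1181 falling. Arrays hold no count of molecules, so no counting interval applies.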
